A study of Mus musculus with 4 samples.

Results

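miR-218 and miR-135 are brain-expressed microRNA families that have been studied in mood, stress and serotonin signalling. Their arms in the medial prefrontal cortex were examined in mice with CUMS-induced depression-like behavior and in control mice. The members were chosen by name, as every arm of miR-218, miR-135a and miR-135b listed in the deposited table, which gave 8 of 1038 known mouse miRNAs (3 arms of miR-218 and 5 of miR-135). The groups were male juvenile C57BL/6 mice (C57BL/6J in the study's methods) that went through weeks of chronic unpredictable mild stress (CUMS: social isolation with daily changes among tilted, empty or damp cages, restraint, noise, strobe light and a disturbed light cycle) and unstressed control mice of the same strain and age. The stressed mice used for sequencing were those whose behavior had changed in every test of sucrose preference, Y-maze stay and forced swimming, so the CUMS group holds the vulnerable animals only. Small RNAs of the bilateral medial prefrontal cortex, taken a day after the last test, were sequenced in 2 libraries per group. The labels do not say whether a library held a single mouse, so the tests measure only the spread between these libraries. Cortex is a mixture of cells, and fewer cells of a type and less RNA per cell cannot be told apart.

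A microRNA hairpin is cut into a 5p and a 3p arm. One arm is usually loaded into the silencing complex, where its seed (bases 2 to 8) pairs with sites in the 3′ untranslated regions of mRNAs, and the other arm is mostly degraded. The miR-218 hairpins lie inside the genes of Slit ligands, secreted proteins that guide axons through Robo receptors, and miR-218 is known to restrain Robo1, Robo2 and, in the prefrontal cortex, the netrin receptor Dcc. miR-135 is known from serotonin neurons, where it represses the autoreceptor Htr1a and the serotonin transporter Slc6a4.

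The mature sequences are shown because the arms of one hairpin family differ in their seeds, and the counts depend on bases that tell close arms apart. RefSeq (GRCm38.p6) held 7 of the 8 members and 884 of the 1038 miRNAs of the table. Each sequence is written 5′ to 3′ with the seed in capitals.
mmu-miR-218-5p: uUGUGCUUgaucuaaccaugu
mmu-miR-218-1-3p: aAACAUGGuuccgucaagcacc
mmu-miR-218-2-3p: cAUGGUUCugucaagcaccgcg
mmu-miR-135a-5p: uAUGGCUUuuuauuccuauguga
mmu-miR-135a-1-3p: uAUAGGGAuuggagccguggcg
mmu-miR-135a-2-3p: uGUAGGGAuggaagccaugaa
mmu-miR-135b-3p: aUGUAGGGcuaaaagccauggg

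These 7 sequences carried 7 different seeds, and no other miRNA of the table with a RefSeq sequence shared one of them. The member without a RefSeq sequence, miR-135b-5p, could not be compared, so a seed that it shares would not be seen here. miR-218-1-3p and miR-218-2-3p are read from the same arm of sister hairpins, and 18 of their 19 aligned bases were identical. Their cleavage starts lie 3 bases apart, so that their seeds differ. Their only difference in the aligned stretch was C12U, counted from 1 at the 5′ end of miR-218-1-3p. miR-135a-1-3p and miR-135a-2-3p were identical at 15 of 21 aligned bases, and A2G, counted from the 5′ end of miR-135a-1-3p, falls in the seed.

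The 5 hairpins are spread over 5 chromosomes of GRCm38, the build that the submitters' notes call mm10. Mir218-1 lies at chr5:48223942-48224051 on the plus strand, in an intron of Slit2. Mir218-2 lies at chr11:35616816-35616925 on the plus strand, in an intron of Slit3. Both hairpins give the same miR-218-5p, and its reads cannot tell them apart, whereas each 3p arm belongs to its own hairpin. Mir135a-1 lies at chr9:106154124-106154213 on the plus strand, in an intron of the antisense transcript D030055H07Rik and opposite to an exon of Glyctk, the glycerate kinase gene. Mir135a-2 lies at chr10:92072086-92072185 on the minus strand, in an intron of Rmst, a long noncoding RNA. Both give the same miR-135a-5p. Mir135b lies at chr1:132198088-132198184 on the plus strand, in an intron of Lemd1.

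The libraries held 9589323 to 10783592 reads of known miRNAs. They are called a and b within each group, since the deposited table gives group means and the reads recovered from it carry no replicate number. Normalised read counts below are reads divided by the size factor of the library. A count of 0 would have allowed up to 0.278 to 0.313 CPM (reads per 1000000 known-miRNA reads), taking 3 reads as the floor, and every member was read in every library. No molecular identifiers were used, so intervals and floors reflect the counting error alone. Markers of the cells of cortex were present. The summed level of 4 neuron miRNAs, with miR-124-3p among them, was 20967 to 27687 CPM, and that of 2 oligodendrocyte miRNAs was 612 to 758 CPM. Control library b stood apart in a list of 8 miRNAs of sensory and other epithelium, at 93217 CPM against 393 to 721 CPM in the other libraries. miR-182-5p alone had 962144 reads there and 3931 to 6566 in the others.

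mmu-miR-218-5p was by far the most abundant member. It took 91.3% to 92.6% of the reads of the 8 members in each library, and the members together took 0.0468% to 0.0675% of all known-miRNA reads. Control a gave 5611 reads and control b 4680, while CUMS a gave 4459 and CUMS b 5994. Normalised, control a and b stood at 5488 and 4678, and CUMS a and b at 4198 and 6351. Both CUMS libraries therefore lay outside the control range, one below it and one above it. The means were 5083 ± 573 (SD, n = 2) in control and 5275 ± 1522 (SD, n = 2) in CUMS, a log2 ratio of 0.05. Over all miRNAs of the table it ranked 94th by mean normalised count.

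mmu-miR-135a-5p, the guide arm that is known to target Htr1a, was the second of the members and ranked 256th. Control a and b gave 259 and 181 reads, CUMS a and b 201 and 254. Normalised, the control values of 253 and 181 overlapped the CUMS values of 189 and 269. Control a and CUMS b were the high libraries, as for miR-218-5p. The mean was 217 ± 51.2 (SD, n = 2) in control and 229 ± 56.5 (SD, n = 2) in CUMS, a log2 ratio of 0.08. The mean of miR-218-5p over the 4 libraries was 23.2 times that of miR-135a-5p, and that of miR-135a-5p was 3.93 times that of miR-218-1-3p. Neither of these gaps was bridged by any library.

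mmu-miR-135b-5p, the 5p arm of the third miR-135 hairpin, was scarce and the most even of the members. Control a and b gave 38 and 37 reads, against 42 and 38 in CUMS a and b. Normalised, these became 37.2 and 37.0 against 39.5 and 40.3. It was the one member whose groups did not overlap, on this scale and in CPM, although CUMS b and control a held the same number of reads. The log2 ratio of 0.11 is a difference of a few reads. Its Wilson 95% intervals were 2.63 to 4.95 CPM in control a and 2.98 to 5.44 CPM in CUMS a, so that the counting error was wider than the gap between groups.

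The 3p arms of miR-135 were each under 100 reads in a library. mmu-miR-135a-2-3p was read 46 and 57 times in control a and b, and 39 and 83 times in CUMS a and b. CUMS libraries held both its lowest and its highest value, 36.7 and 87.9 normalised counts, a spread of 2.39 times. The log2 ratio was 0.29. For mmu-miR-135b-3p the control reads were 43 and 22 and the CUMS reads 35 and 26, so that the CUMS values lay inside the control range, at a log2 ratio of -0.08. For mmu-miR-135a-1-3p they were 32 and 19 in control against 14 and 26 in CUMS, where 1 CUMS library lay below both controls, at a log2 ratio of -0.30.

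The miR-218 3p arms come one from each hairpin and differed in level. mmu-miR-218-1-3p, from the Slit2 intron, was read 57 and 61 times in control and 68 and 44 times in CUMS. Its CUMS values, 64.0 and 46.6 normalised counts, lay on either side of the control values of 55.8 and 61.0, and the log2 ratio was -0.08. mmu-miR-218-2-3p, from the Slit3 intron, was the least abundant member and the one with the greatest difference. Only 11 and 4 reads were found in control, against 26 and 10 in CUMS. Normalised, these became 10.8 and 4.00 against 24.5 and 10.6, so that CUMS b lay just below control a. Its mean was 7.38 ± 4.78 (SD, n = 2) in control and 17.5 ± 9.82 (SD, n = 2) in CUMS, a 2.38-fold difference or 1.25 on the log2 scale. At these depths the Wilson 95% interval was 0.583 to 1.87 CPM in control a, 0.144 to 0.954 CPM in control b, 1.70 to 3.65 CPM in CUMS a and 0.566 to 1.92 CPM in CUMS b. Without CUMS library a the log2 ratio was 0.52, which is under a fold of 1.5.

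**Figure D1:**
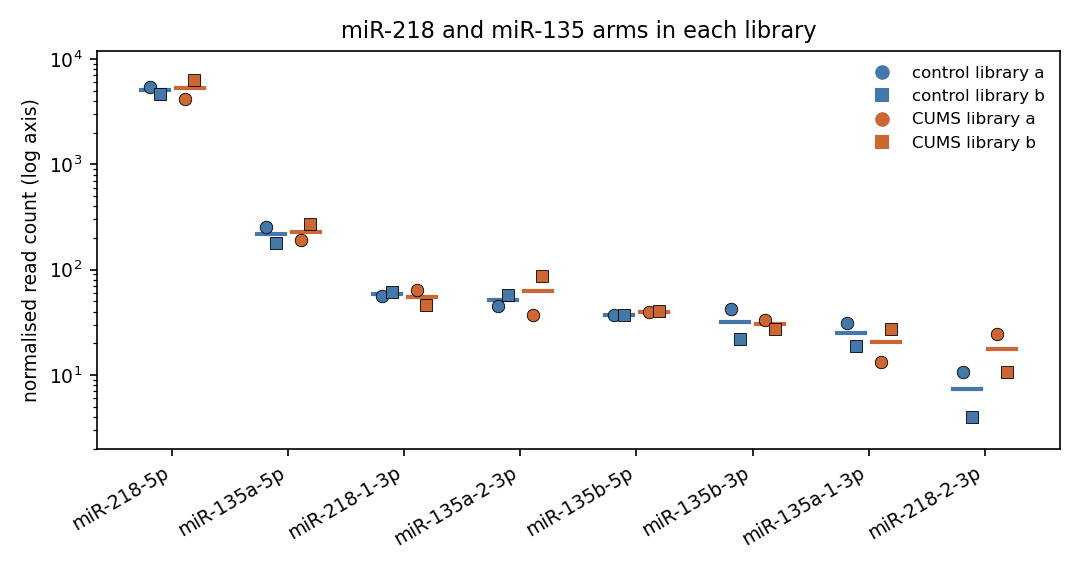
Normalised read count (log axis) of each of the 8 miR-218 and miR-135 arms in the 2 control and 2 CUMS libraries. Points are libraries and bars are group means. miR-218-5p stands at 4198 to 6351, the points of the groups overlap for 7 arms, and miR-218-2-3p ranges from 4.00 to 24.5.

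In the order of mean levels the members read miR-218-5p, miR-135a-5p, miR-218-1-3p, miR-135a-2-3p, miR-135b-5p, miR-135b-3p, miR-135a-1-3p and miR-218-2-3p, at ranks 94 to 489 of 1038. From miR-218-1-3p downward, neighbours in this order had overlapping ranges, and the higher of each pair was higher in 3 of 4 libraries. miR-218-1-3p and miR-135a-2-3p were level, at 56.8 and 56.7 normalised counts. These are levels of reads per mature miRNA, and sequence preferences of the ligation steps between arms were not tested.

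No member passed the tests run here of the difference between CUMS-induced depression mice and control. The log2 ratio exceeded the pooled within-group SD for miR-135b-5p (0.11 against 0.013) and miR-218-2-3p (1.25 against 0.84), and was smaller than it for the other 6. One member, miR-218-2-3p, passed a fold of 1.5 where the mean of either group reached 5, which is 1 of 8. Among all miRNAs that met the same minimum, 161 of 628 (25.6%) passed this fold, and 11.9% did so with the higher mean in CUMS. Among the 181 of these with a mean under 20 over the libraries, the range in which miR-218-2-3p lies, the share was 63.0%. The study itself lists this arm as changed, by its own DESeq test on the same libraries, with criteria of p under 0.05 and a fold above 1.5. The tests run here did not call it. Its count is not independent evidence, since the libraries are the same. The groups did not overlap for 1 of 8 members (miR-135b-5p), beside 33.8% of the 719 miRNAs that reached 5 reads in any library. The mean was higher in CUMS for 5 members and lower for 3, beside 52.3% higher among the 719.

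With 2 libraries against 2, the exact two-sided permutation test cannot go below p = 0.333, so that this design cannot reach 0.05. This exact test gave p = 0.333 for miR-135b-5p, p = 0.667 for miR-135a-5p, miR-135a-1-3p and miR-218-2-3p, and p = 1 for the other 4 arms. On the reads recovered for each library, the quasi-likelihood test of edgeR over 719 miRNAs gave Benjamini-Hochberg adjusted p-values of 0.849 for miR-218-2-3p and up to 0.990 for the others, and no member had an unadjusted p under 0.05. That unadjusted threshold was passed by 4.17% of these miRNAs with edgeR, by 3.95% of all 1038 with edgeR and no filter on low counts, and by 3.2% with DESeq2, and the adjusted threshold of 0.05 by 0 of 719 (0.0%) with either. The DESeq2 adjusted p was 0.999 for each member.

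The precision differed greatly between the members. The DESeq2 95% interval of the log2 ratio was -0.39 to 0.49 for miR-218-5p and -0.57 to 0.72 for miR-135a-5p. It widened to -1.06 to 1.28 for miR-135b-5p and to -0.89 to 3.39 for miR-218-2-3p. A doubling of miR-218-5p or of miR-135a-5p thus lies outside its interval. A doubling of miR-218-2-3p, miR-135b-5p or the 3p arms of miR-135 does not. These intervals rest on 2 libraries per group and on a spread modelled over all miRNAs, so they cannot exclude a doubling. The interval of miR-218-1-3p ended at 0.93. The median log2 ratio of the members was 0.07 beside 0.02 over the 719 miRNAs, and the median size of the ratio, taken without its sign, was 0.09 beside 0.28. The median within-group SD on the log2 scale was 0.41 for the members and 0.32 for the 719.

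**Figure D2:**
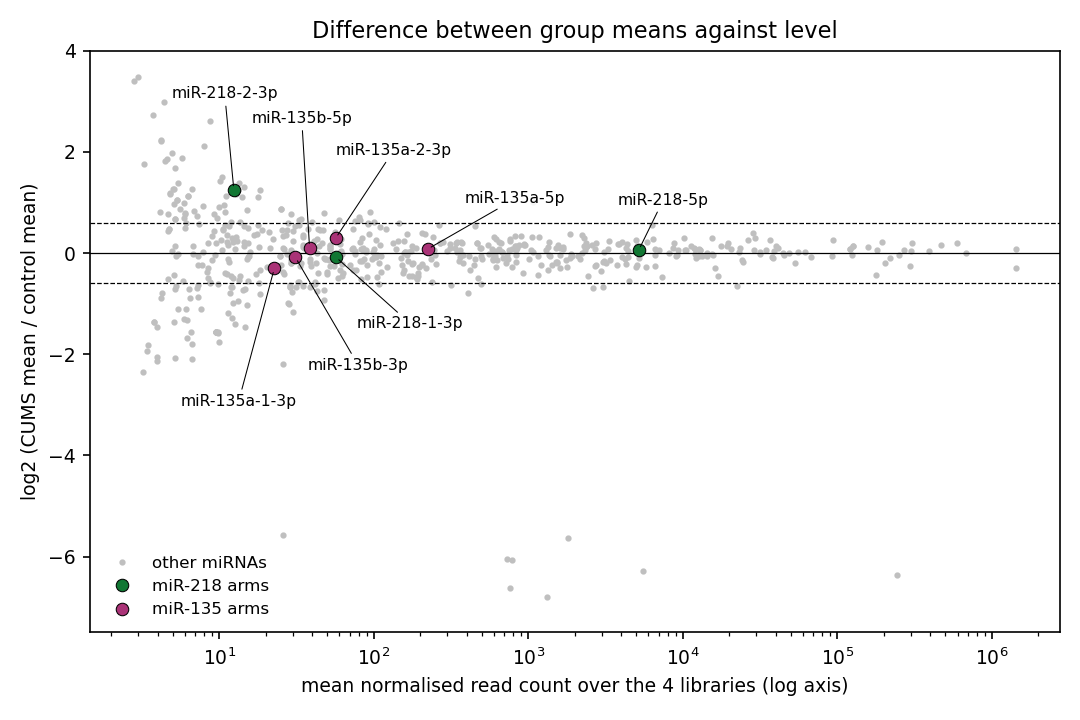
Log2 ratio of the CUMS mean to the control mean against the mean normalised read count over the 4 libraries (log axis), for miRNAs whose mean reached 5 in either group and that were read in both. Dashed lines mark a fold of 1.5 in either direction. The miR-218 and miR-135 arms lie between -0.30 and 0.29, except miR-218-2-3p at 1.25, which sits at low counts where many miRNAs lie outside the lines.

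The balance between the arms of a hairpin was then compared within each library, where the size factors cancel out. For miR-218 the 5p arm dominated in every library. There were 1.21 and 1.39 reads of its 3p arms per 100 reads of the 5p arm in control, and 2.11 and 0.901 in CUMS. The CUMS libraries again lay on either side of the controls. miR-135a was less one-sided, with 30.1 and 42.0 reads of the 3p arms per 100 of the 5p arm in control and 26.4 and 42.9 in CUMS. For miR-135b the arms were about equal, with 113 and 59.5 reads of the 3p arm per 100 of the 5p arm in control and 83.3 and 68.4 in CUMS, and the 3p arm was the larger in control a alone. Over 181 hairpin names with both arms read in every library, the median log2 ratio between the arms was 3.47 in size, whereas the mean log2 ratio over the libraries was -6.22 for miR-218, -1.53 for miR-135a and -0.35 for miR-135b. The miR-218 hairpins were therefore more one-sided and the miR-135 hairpins less one-sided than the median hairpin.

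The 3p arms also give the only reads that separate the sister hairpins. miR-218-2-3p had 19.3 and 6.56 reads per 100 reads of miR-218-1-3p in control, and 38.2 and 22.7 in CUMS. Thus the arm from the Slit2 intron was the larger in every library, and the share of the Slit3 arm was higher in both CUMS libraries than in either control library. This difference was 1.39 on the log2 scale (exact two-sided permutation test, p = 0.333, the smallest that it can give), with a pooled within-group SD of 0.86. It rests on the 4 to 26 reads of miR-218-2-3p. Groups did not overlap for 35.9% of the 181 hairpin names, and 1.26 was the 90th percentile of the size of the difference among them. Those values are ratios between opposite arms of a hairpin name, not between the same arm of sister hairpins. They were also not matched on read counts, so they cannot rank the difference of 1.39. For miR-135a, miR-135a-1-3p had 69.6 and 33.3 reads per 100 reads of miR-135a-2-3p in control and 35.9 and 31.3 in CUMS, with overlapping groups and a difference of -0.52 (exact permutation p = 0.667). The differences for miR-218, miR-135a and miR-135b arms were 0.09, -0.08 and -0.12, each smaller than its pooled within-group SD of 0.62, 0.43 and 0.49.

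**Figure D3:**
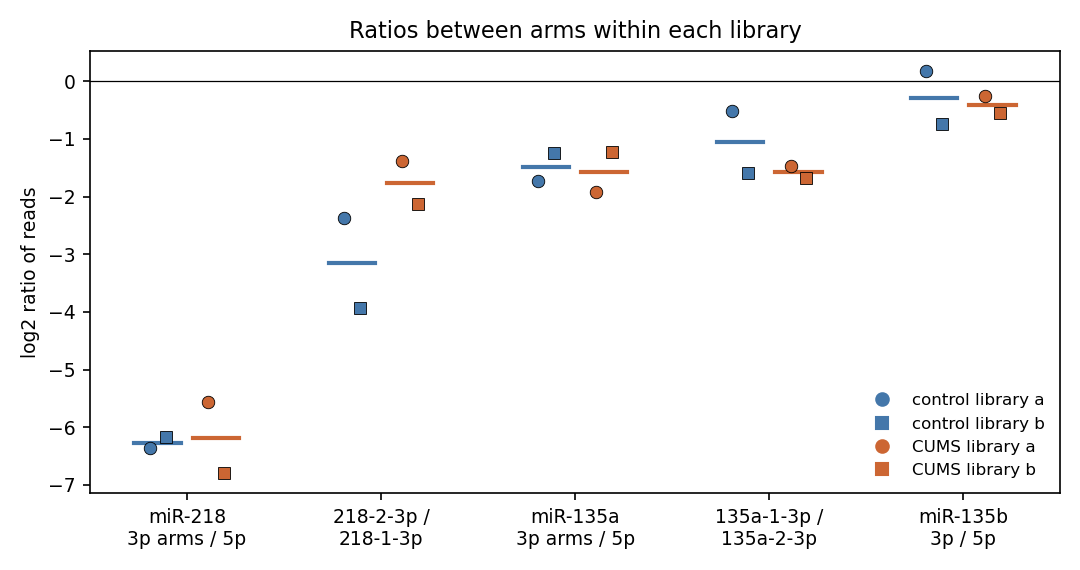
Log2 ratio of reads between arms within each library, for 5 pairs of the miR-218 and miR-135 hairpins. Points are libraries, bars are group means, and 0 marks equal reads. The miR-218 ratio of 3p to 5p lies near -6 in every library, the miR-135b ratio lies near 0, and the ratio of miR-218-2-3p to miR-218-1-3p is the one pair whose groups do not overlap.

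miR-218-5p and miR-135a-5p varied together over the libraries, high in control a and CUMS b and low in control b and CUMS a. The likeness was measured as the Euclidean distance of log2(normalised count + 1) centred on each miRNA, over the 4 libraries, among the 359 miRNAs with a mean of at least 50. It is a description of 4 points that share their libraries. The nearest to miR-218-5p were miR-99a-3p at 0.08, miR-190a-5p at 0.09 and miR-103-3p at 0.13. The nearest to miR-135a-5p were let-7b-5p at 0.04, miR-143-3p at 0.11 and miR-679-5p at 0.15. miR-135a-5p was 11th in nearness to miR-218-5p, at 0.20. By contrast miR-218-1-3p, from the same hairpin as a part of miR-218-5p, stood 286th at 0.79, being lowest in CUMS b where miR-218-5p was highest. It had few reads, and its Wilson 95% intervals overlapped, at 5.14 to 8.27 CPM in CUMS a and 3.42 to 6.16 CPM in CUMS b. The other 3p arm shown, miR-135a-2-3p, was highest in CUMS b, as both 5p arms were. It stood 262nd in nearness to miR-135a-5p, at 0.78.

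**Figure D4:**
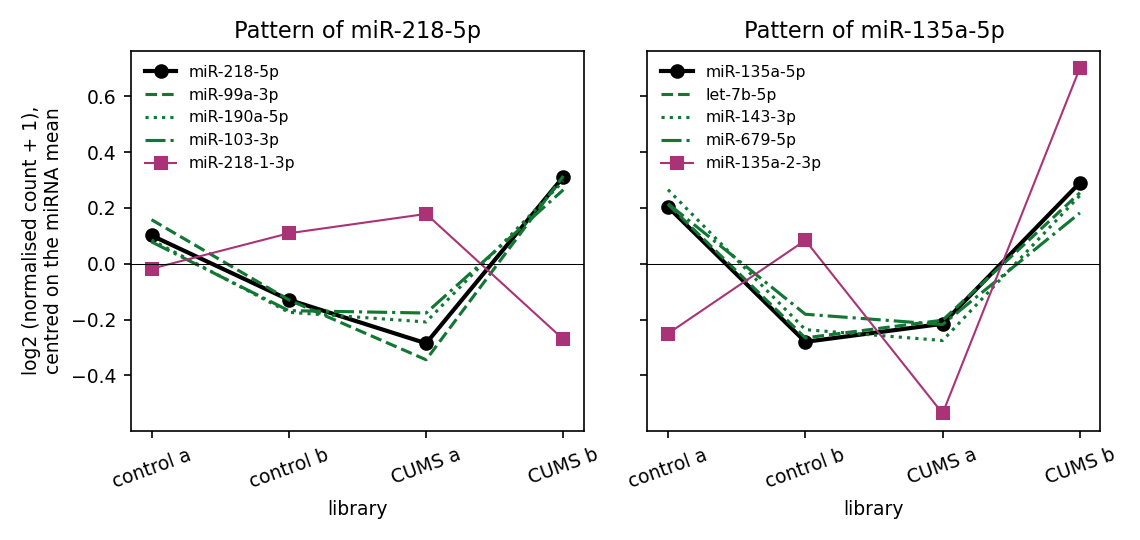
Log2(normalised count + 1) centred on the mean of each miRNA, in the 4 libraries, for miR-218-5p and miR-135a-5p with the 3 miRNAs most like each and one 3p arm of the same family. The lines join libraries only to guide the eye. miR-218-5p and miR-135a-5p rise in control a and CUMS b, while miR-218-1-3p is lowest in CUMS b and miR-135a-2-3p is highest there.

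Marker miRNAs of other tissue were set beside these levels. A list of hindbrain and spinal cord miRNAs from the Hox clusters, of which 3 of 5 were in the table, summed to 1215 and 857 CPM in control and 484 and 1179 CPM in CUMS. Thus this sum too was high in control a and CUMS b and lowest in CUMS a. CUMS a was also the library where miR-218-5p was lowest, at 428 CPM against 434 to 625 CPM in the others. Most of the sum was miR-10b-5p, which followed the same order. The other abundant marker, miR-10a-5p, was also lowest in CUMS a, but it was lower in CUMS b than in control b. One of these markers, miR-196b-5p, was at 0 in at least one library. The part of this tissue in the levels of miR-218-5p was not tested. Choroid plexus miRNAs (2 of 2 in the table) summed to 1644 and 2042 CPM in control and 1625 and 1243 CPM in CUMS. This sum was lowest in CUMS b, where miR-218-5p was highest, but was level in control a and CUMS a. Most of it was miR-204-5p, which was higher in control b than in control a. The reverse held for miR-211-5p. Endothelium, microglia and red cell lists varied by 1.23 to 1.40 times between libraries. Muscle miRNAs, 2 of 3 in the table, summed to 19.4 to 32.3 CPM. Control b, where the epithelial markers stood out, held the lowest normalised count of miR-135a-5p, miR-135b-5p, miR-135b-3p and miR-218-2-3p and an intermediate one of the other 4 arms, and the part of that tissue in these levels was not tested. Without control b the log2 ratio of CUMS to control was 0.70 for miR-218-2-3p, -0.06 for miR-218-5p and -0.14 for miR-135a-5p, the last 2 with the sign turned, and -0.62 for miR-135a-1-3p, now past a fold of 1.5. The difference in the ratio of miR-218-2-3p to miR-218-1-3p was 0.61 without it.

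Other miRNAs known from work on mood, stress or serotonin were taken as a list for comparison. Of 22 names 21 were in the table, and 9 had a higher and 12 a lower mean in CUMS, which became 13 higher and 8 lower without control library b. The median log2 ratio was -0.05 and the median size 0.28, beside 0.07 and 0.09 for the miR-218 and miR-135 arms. The fold of 1.5 was passed by 6 of 21, a count for which no minimum mean was set. It was passed by 25.6% of the 628 miRNAs that met the minimum used for the members. Of the 6 in the list, miR-182-5p, miR-183-5p and miR-96-5p followed the reads of control b. Further, miR-18a-5p and miR-155-5p had at most 9 reads in a library and lay under that minimum. The sixth was miR-34c-5p, a stress-linked miRNA, whose reads were 3040 and 3524 in control against 2177 and 1880 in CUMS, a log2 ratio of -0.68. Without control b it was -0.56, under the fold of 1.5. The groups did not overlap for 6 of 21, beside 33.8% of the 719 miRNAs, with miR-124-3p, miR-132-3p and miR-212-3p higher and miR-34c-5p, miR-134-5p and miR-495-3p lower in CUMS. No miRNA of the list had an adjusted p under 0.05 with edgeR or DESeq2. An unadjusted edgeR p under 0.05 was found for 4 of 21, beside 4.17% of the 719. Of the 4, miR-182-5p and miR-183-5p followed the reads of control b, and the others were miR-34c-5p and miR-134-5p.

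The seed of an arm gives the sites that it could pair with. The complement of bases 2 to 8 was searched on the transcript strand of the longest annotated 3′ UTR of 21004 mouse genes. The match of miR-218-5p (AAGCACA) was held by 13.8% of them, that of miR-135a-5p (AAGCCAT) by 13.0% and that of miR-218-2-3p (GAACCAT) by 7.32%. For miR-218-5p, Robo1 held 1 match, Robo2 and Slit2 2 each, and Dcc and Slit3 held 0. Among the GABA genes described here, Gad2 (glutamate decarboxylase) held 1, and Gad1 and Slc32a1 held 0. For miR-135a-5p, Htr1a and Jak2 held 1 match each, Cplx1 (complexin, which acts in vesicle release) and Robo2 2 each, and Slc6a4 and Apc held 0. For miR-218-2-3p, Robo2 and Dcc held 1 match each. Longer 3′ UTRs hold more matches. Of those within 20% of the length of the 3′ UTR of Robo2, 37.3% held the miR-218-5p match, and 18.2% did for Robo1 and 32.9% for Slit2. The miR-135a-5p match was held by 22.6% of 3′ UTRs near the length of Htr1a. A match is not a measured site, and a 0 says only that these letters are not in this stretch. The first site in each 3′ UTR is given for Robo1, Robo2 and Slit2 with miR-218-5p and for Htr1a with miR-135a-5p, with the match in capitals, and the second sites of Robo2 and Slit2 are left out.
Robo1, miR-218-5p match at chr16:73045348-73045354, plus strand: ttggttttaaAAGCACAatcactaaac
Robo2, miR-218-5p match at chr16:73895359-73895365, minus strand: atttggtgatAAGCACAaatctctact
Slit2, miR-218-5p match at chr5:48304543-48304549, plus strand: atactagcagAAGCACAtctacaagag
Htr1a, miR-135a-5p match at chr13:105447399-105447405, plus strand: ctgccacatgAAGCCATtgtttttatt

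Thus the gene that hosts Mir218-1 also holds letters that its own 5p arm could pair with, whereas the shorter 3′ UTR of Slit3, which hosts Mir218-2, holds none. Of 3′ UTRs near the length of that of Slit3, 3.15% held the match, beside 32.9% near that of Slit2. The mRNAs of the genes searched were not analysed here, so no level of a possible target stands beside the levels of the arms.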

How the data were processed

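Small RNA libraries of 2 control and 2 CUMS medial prefrontal cortex samples were analysed. Per the study's methods, the authors trimmed adaptors, removed other noncoding RNA, matched 18-25 nt reads without mismatch to mouse miRBase precursors, counted those overlapping a mature miRNA by 16 nt or more, and normalised with DESeq (Bowtie and DESeq are named in the submitters' notes, with no version). The deposited table gives a signal per miRNA, the mean over each group of counts divided by size factors; its columns of fold changes and p-values from the authors' own comparison were not used. A read that overlaps either miR-218 3p arm by that length spans the base in which they differ, so exact matching separates them.

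Each deposited mean is a sum of whole reads times a step per library, so the reads of the single libraries were recovered: 100% of 1038 values per group came out whole (tolerance 1e-09), 2 in control with more than one solution, and the size factors of 1.02, 1.00, 1.06 and 0.944 (control a, b, CUMS a, b) were recomputed from them. Recovery was tested on simulated data (100% of values). The log2 ratio of the deposited group means is the main value, with an exact permutation test over libraries. edgeR 4.0.16 (quasi-likelihood, on miRNAs that reached 5 reads in any library) and DESeq2 1.42.0 were run on the recovered reads as alternatives. On simulated reads for CUMS against control (672 miRNAs, 200 changed 4-fold, dispersion 0.02), edgeR recovered 98.5% and DESeq2 85% of the changed miRNAs. Unchanged miRNAs called were 11 with edgeR and 3 with DESeq2. The fold and dispersion were set and not taken from the members, so these shares do not say what could be detected for them. Python 3.11.15, numpy 2.4.6, pandas 2.3.3 and scipy 1.17.1 were used. Sequences and hairpin positions are from RefSeq GRCm38.p6, and host genes and 3′ UTRs from GENCODE on GRCm38.

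The text names all members, the 3 miRNAs nearest in pattern to miR-218-5p and miR-135a-5p, a list of mood-linked miRNAs, marker lists and target genes from the literature. The members and lists were chosen with earlier results of these data known. The share among miRNAs with a mean under 20 was added after the data were seen. Some target genes that were searched are not reported here.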

Additional observations from a re-analysis of the deposited data

How the results depend on the processing

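The log2 ratio of miR-218-2-3p, the member past a fold of 1.5, kept its sign under every alternative run. Of 126 alternative values for the members and their arms 112 moved by less than the within-group SD (or, for counts, by less than 1.5 times) and 14 moved by more. miR-135b-5p, whose SD is very small, went from 0.11 to 0.18 in CPM, 0.071 with TMM factors, 0.085 with a median log2 ratio of 0, 0.071 with edgeR and 0.065 with edgeR without a filter, each still higher in CUMS. With a group mean of at least 50, the count of members past a fold of 1.5 went from 1 to 0. Without one library in turn, the log2 ratio ranged from -0.28 to 0.32 for miR-218-5p, -0.32 to 0.13 for miR-218-1-3p, -0.47 to 0.79 for miR-135a-2-3p, -0.48 to 0.46 for miR-135b-3p, -0.93 to 0.13 for miR-135a-1-3p and 0.52 to 2.13 for miR-218-2-3p, and the count of members past a fold of 1.5 from 1 to 2. The count was 2 without control library b and without CUMS library b, where miR-135a-1-3p joined miR-218-2-3p. Without CUMS library a it was 1, but miR-135a-2-3p took the place of miR-218-2-3p. Fits that leave an arm with 1 library assume that it varies like the other group. Over all fits the adjusted p of the members (edgeR or DESeq2) was 0.659 to 0.999. Of all miRNAs, 30 had an unadjusted p under 0.05 with edgeR, 41 without its filter and 23 with DESeq2. No paired analysis was possible because the recovered libraries carry no replicate number. The mood list had 6 of 21 miRNAs past the fold and 5 without control library b, a setting chosen after seeing the data, and the members of the count changed. There miR-182-5p went from -6.37 to 0.60 and miR-183-5p from -6.28 to 0.54, miR-96-5p had no read in the remaining control library, miR-34c-5p went to -0.56, under the fold, and miR-34a-5p (-0.66) and miR-495-3p (-0.63) passed it. With 2 libraries per group, the number of libraries limits what could be detected for all 8 arms. For the 6 arms with under 100 reads, the depth limits it further.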
